A study of Mus musculus with 6 samples.

Results

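Interferon-stimulated genes are the antiviral and signalling genes that cells switch on after interferon binds its receptor. A list of 34 of them was followed library by library in mouse lung group 2 innate lymphoid cells (ILC2s), taken by gene symbol from the deposited count table. The table has a column for 33 of the 34 (Oas2 is not analysed here) among 18122 genes in all. Of these 33, 31 passed the filter on low counts and were tested among 13691 genes, and Mx1 and Ifi44 did not pass. ILC2s are lymphocytes without antigen receptors that release type 2 cytokines; here they were sorted from lung, and RNA was extracted from the cultured cells and amplified with a low-input cDNA kit.

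The series holds 3 wild-type (WT) libraries, with the genotype label BALB/C BYJ, and 3 libraries from mice with a targeted allele of the inducible co-stimulator gene (ICOS KO), given as C.129S4-Icostm1Shr/J. For age, sex, any stimulation and the culture conditions nothing is given in the sources used here. The strain names of the groups differ too, so the allele and other strain DNA cannot be told apart in any difference below. Whether the libraries are separate mice or cultures is not said in the labels, and p-values then measure only how these libraries spread, which may be technical. Library totals were 14976130 to 18736474 estimated counts in WT and 13738062 to 15543034 in ICOS KO, and a floor of 3 counts in 1 library lay between 0.157 and 0.225 CPM (counts relative to the TMM-scaled library size). Such floors cover counting error only. Icos stood at 434, 462 and 502 CPM in the WT libraries and 140, 170 and 161 CPM in ICOS KO, lower in every ICOS KO library. All 12 ILC2 markers were detected, at summed levels of 10074 to 11193 CPM in WT and 10648 to 11530 CPM in ICOS KO, a sum mostly of Il5. By edgeR 4 of the 12 rose (Il1rl1, Areg, Klrg1 and Arg1) and 1 fell (Rora), beside 1.29% and 2.01% of all tested genes.

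Type I interferons bind the receptor chains IFNAR1 and IFNAR2, whose kinases JAK1 and TYK2 phosphorylate transcription factors such as STAT2. STAT2 acts with IRF9 in the complex ISGF3, which binds the interferon-stimulated response element in promoters, while interferon-gamma acts through gamma-activated sites. In uninfected tissue a low, tonic interferon signal keeps many of these genes on at a basal level. In lung, type I interferon is known to restrain ILC2s.

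Promoter letters are shown first, because these genes are known by their shared response element. RefSeq promoter windows (GRCm38.p6, 250 bases before to 50 bases after the start) were matched by symbol for 27 of the 33 members. The letters GAAANNGAAA, read on either strand, occurred in 13 of the 27 (48.2%), beside 3.71% of the 9543 tested genes with a window. The gamma-activated letters TTCNNNGAA occurred in 9 of the 27 (33.3%), beside 8.29% of tested genes, and 1 of the 9 matches overlapped a GAAANNGAAA match. The stretches below were chosen to show members that fell (Ifit1, Ddx58), members with several overlapping copies (Isg15, Oas1a), Rsad2 as the neighbour of a called gene, and the guanylate-binding pair Gbp2 and Gbp3 and the tethering gene Bst2, whose levels behaved differently from one another. Capitals mark the response element letters or their reverse complement TTTCNNTTTC, and overlapping matches run together. Each is written 5′ to 3′ on the gene's strand.
Ifit1, chr19:34640760-34640838 (+ strand): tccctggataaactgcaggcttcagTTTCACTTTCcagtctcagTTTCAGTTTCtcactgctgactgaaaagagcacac
Ddx58, chr4:40239806-40239848 (- strand): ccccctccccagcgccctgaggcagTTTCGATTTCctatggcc
Isg15, chr4:156200850-156200921 (- strand): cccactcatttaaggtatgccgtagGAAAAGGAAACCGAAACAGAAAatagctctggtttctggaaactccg
Oas1a, chr5:120907506-120907570 (- strand): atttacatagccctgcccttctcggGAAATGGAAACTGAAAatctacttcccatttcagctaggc
Rsad2, chr12:26456538-26456597 (- strand): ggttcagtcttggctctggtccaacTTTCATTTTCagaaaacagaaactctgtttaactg
Gbp2, chr3:142620579-142620638 (+ strand): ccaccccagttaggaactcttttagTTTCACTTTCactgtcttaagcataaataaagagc
Gbp3, chr3:142559974-142560039 (+ strand): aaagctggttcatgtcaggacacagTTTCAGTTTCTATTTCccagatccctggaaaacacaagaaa
Bst2, chr8:71537562-71537627 (- strand): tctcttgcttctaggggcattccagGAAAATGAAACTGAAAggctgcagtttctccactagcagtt

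Counting the first transcribed base as 1, the matches began at -104 and -85 in Ifit1, at 3 in Ddx58, at -78 to -66 in Isg15 and at -59 in Gbp2. Of the 6 members that fell (below), 4 had a window and 2 of these (Ifit1 and Ddx58) held the letters. Of the members tested and not called, 11 of 22 held them. Read on the gene's own strand alone, 22.2% of members held the letters. A match is a description of sequence and was not linked here to binding.

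As a group the members were lower in the ICOS KO libraries. The list was chosen with earlier results of these data known, so shares set beside all tested genes are a description. By edgeR's quasi-likelihood test with Benjamini-Hochberg adjustment over all tested genes at 0.05, 6 of 31 fell: Cmpk2, Ifit1, Rtp4, Usp18, Irf7 and Ddx58. Of all tested genes, 2.01% were called lower. None rose, by edgeR, DESeq2 or limma voom, and none of the positive differences had an unadjusted p under 0.05; of all tested genes 1.29% were called higher. The fitted log2 fold change (ICOS KO over WT) was negative for 29 of the 31 and positive for Irf1 and Samhd1. Its median was -0.81, against -0.0035 over all tested genes, of which 6904 were negative and 6787 positive. In 17 of the 31 every ICOS KO library lay below every WT library, which held for 12.5% of all tested genes, and in the other 14 the groups overlapped. An unadjusted p under 0.05 was found for 21 of the 31, all lower, and for 2718 of the 13691 tested genes. In bulk RNA, fewer cells that express a gene and less RNA per cell cannot be told apart.

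The count of 6 depended on single libraries and on the test. It was 3 without WT replicate 3, 2 without ICOS KO replicate 3 and 10 without ICOS KO replicate 1. Over all tested genes the number called lower also moved, to 216, 141 and 599 in these runs, from 275 with all libraries. With DESeq2, 16 members were called lower, when 929 of all tested genes were called in place of 451. The median stayed below 0 in every alternative run, from -0.96 without WT replicate 1 to -0.55 without WT replicate 3.

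**Figure D1:**
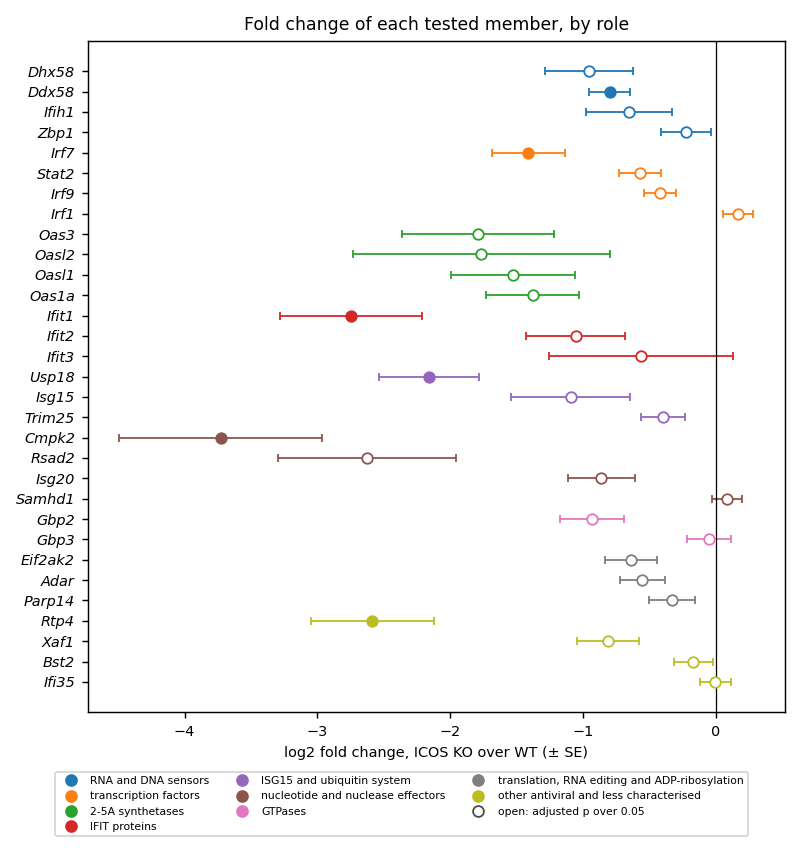
Fitted log2 fold change (ICOS KO over WT) of each of the 31 tested members, with its standard error, coloured by role. Filled points are the 6 members with an edgeR adjusted p under 0.05; all lie left of 0, and Irf1 and Samhd1 are the 2 points to the right of it.

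The libraries of a genotype were not alike. The mean log2 CPM over the tested members was 3.64, 3.78 and 4.30 in WT replicates 1 to 3 and 3.07, 2.82 and 2.77 in the ICOS KO replicates. All WT libraries were above all ICOS KO libraries, and WT replicate 3 was the highest of the 6. It was the highest WT library in 24 of the 31 members (77.4%), against 37.3% of all tested genes, and stood a median of 0.55 above the mean of the other WT libraries on the log2(CPM + 0.5) scale. In the ICOS KO group the same median lay between -0.15 and -0.011 for each library.

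**Figure D2:**
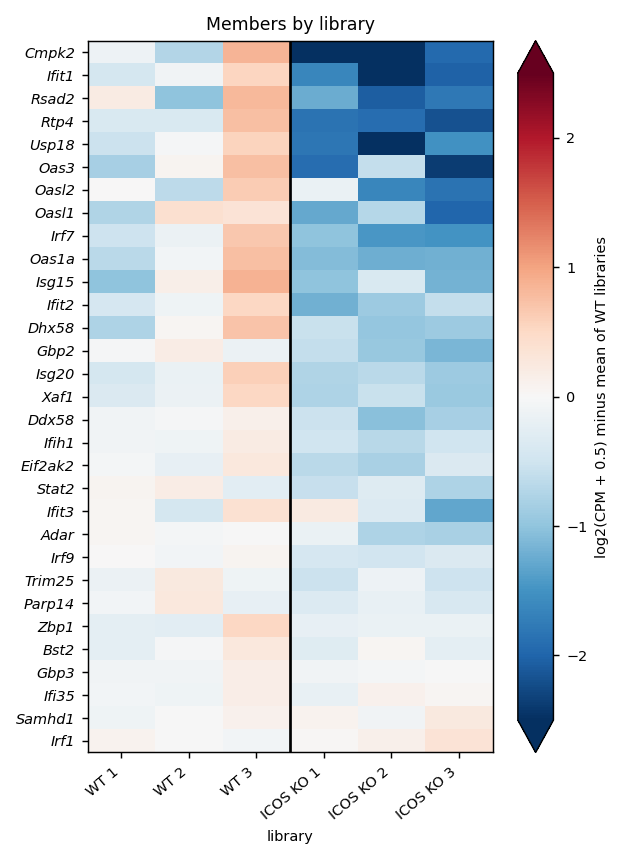
Each tested member (rows) in each of the 6 libraries (columns), as log2(CPM + 0.5) minus the mean of the WT libraries; blue is lower, red is higher, and differences past 2.5 take the end colour. The rows are ordered by the fitted log2 fold change, most negative at the top; WT replicate 3 is the reddest column, and the bottom rows change little.

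RNA and DNA sensors start the response. Ddx58, which encodes the viral RNA helicase RIG-I (chromosome 4, 40203773 to 40239828, GRCm38), was the one called member of the 4. It stood at 43.4, 45.0 and 50.5 CPM in the WT libraries and 31.8, 22 and 25.8 CPM in ICOS KO, with no overlap. The group means were 46.3 ± 3.74 and 26.5 ± 4.92 (SD, n = 3 each), and the log2 fold change was -0.80 ± 0.15 (SE; adjusted p by edgeR = 0.0146). Its adjusted p was 0.0664 without WT replicate 2, 0.0538 without WT replicate 3 and 0.0827 without ICOS KO replicate 3.

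The relatives of RIG-I differed in their spread. Ifih1, encoding the sensor MDA5 for long double-stranded RNA, was at 3.67, 3.63 and 4.65 CPM in the WT libraries and 2.65, 2.25 and 2.67 CPM in ICOS KO. Every ICOS KO library was below every WT library, but at these low counts the log2 fold change was -0.65 ± 0.33 (SE; adjusted p by edgeR = 0.287). Dhx58, encoding LGP2, the RIG-I-like protein without a signalling domain, spread from 7.45 to 21.6 CPM in WT and from 6.46 to 8.65 CPM in ICOS KO, and the groups overlapped (edgeR adjusted p = 0.149). Zbp1, a sensor of Z-form nucleic acid, was at 44.7, 44.4 and 76.1 CPM in the WT libraries and 46.2, 47.7 and 47.3 CPM in ICOS KO. Its difference of -0.22 on the log2 scale rested on WT replicate 3 and was 0.077 without that library.

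Of the 4 transcription factors of the response, 1 fell. Irf7, the interferon-inducible factor that drives most interferon-alpha genes (chromosome 7, 141262706 to 141266481), was at 27.2, 35.3 and 62.9 CPM in WT. In ICOS KO it was at 19.3, 14.0 and 13.6 CPM, below every WT library. The means were 41.8 ± 18.7 and 15.6 ± 3.2 (SD, n = 3 each), with a log2 fold change of -1.41 ± 0.28 (SE; adjusted p by edgeR = 0.0162), and the adjusted p was 0.0573 without ICOS KO replicate 2 and 0.107 without replicate 3. The body of Irf7 overlaps that of Phrf1 (log2 fold change -0.18), and the strand setting of the counting is not known, so reads of the overlap cannot be assigned.

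The other factors were more even between libraries. Stat2 was at 49.6, 53.5 and 39.4 CPM in the WT libraries and 31.3, 37.6 and 27.2 CPM in ICOS KO (log2 fold change -0.57 ± 0.16 SE, edgeR adjusted p = 0.0829). Irf9, the DNA-binding part of ISGF3, was at 42.8, 40.5 and 44.7 CPM in the WT libraries and 31.7, 30.6 and 33.1 CPM in ICOS KO (-0.42 ± 0.12 SE, edgeR adjusted p = 0.0878). For both, no ICOS KO library reached the lowest WT library. Neither passed in edgeR without a block for replicate number. DESeq2 called both. Stat2 was also called by limma voom with sample weights and by edgeR with a block for replicate number. Irf9 overlaps Rnf31. Irf1, a factor that interferon-gamma induces, was at 79.1, 73.2 and 70.6 CPM in the WT libraries and 76.0, 80.8 and 93.7 CPM in ICOS KO, a difference of 0.17 ± 0.11 (SE) on the log2 scale that did not pass (edgeR adjusted p = 0.424).

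The oligoadenylate synthetases make the second messenger that activates RNase L. All 4 tested members of this family had log2 fold changes between -1.79 and -1.38, and none passed the threshold in edgeR with all libraries and TMM factors or in limma voom; 3 had an unadjusted p under 0.05, and DESeq2 called 3 (Oas1a, Oas3 and Oasl1). In edgeR, Oas1a was called on library totals alone, with length and GC trends removed and without WT replicate 1, Oas3 without ICOS KO replicate 2, and Oasl2 without ICOS KO replicate 1. Oas1a was at 5.77, 9.15 and 16.3 CPM in the WT libraries and 4.26, 3.83 and 3.86 CPM in ICOS KO, with no overlap (log2 fold change -1.38 ± 0.35 SE, edgeR adjusted p = 0.0595). Oas3 spread from 3.15 to 10.4 CPM in WT and from 0.74 to 3.76 CPM in ICOS KO, and Oasl1, a brake on Irf7 translation in mice, from 2.94 to 7.15 CPM and from 0.96 to 3.01 CPM. In both, the lowest WT library lay below the highest ICOS KO library. Oasl2 was near the floor, at 0.63 to 2.29 CPM in the WT libraries and 0 to 1.10 CPM in ICOS KO. Oas1a has close relatives in the genome, and estimated counts can divide reads between such copies, so its level is uncertain; the same holds for the IFIT genes and the guanylate-binding genes below.

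IFIT proteins bind foreign RNA ends and block its translation. Ifit1 (chromosome 19, 34640871 to 34650009) was at 2.99, 3.94 and 6.36 CPM in the WT libraries and 1.03, 0.23 and 0.67 CPM in ICOS KO. These values rest on 229 counts over the WT libraries and 28 over the ICOS KO libraries, and the lowest WT library exceeded the highest ICOS KO library. The log2 fold change was -2.75 ± 0.53 (SE; adjusted p by edgeR = 0.0157), with means of 4.43 ± 1.74 and 0.642 ± 0.405 CPM (SD, n = 3 each). Leaving out WT replicate 2, WT replicate 3 or ICOS KO replicate 3 ended the call (edgeR adjusted p = 0.0606, 0.0659 and 0.0812). Its neighbours on chromosome 19 differed less. Ifit2 was at 3.57, 4.57 and 7.28 CPM in the WT libraries and 1.87, 2.41 and 3.12 CPM in ICOS KO, separate between groups but not called (log2 fold change -1.06 ± 0.37 SE, edgeR adjusted p = 0.156). Ifit3 was at 0.68 to 1.57 CPM in the WT libraries and 0.15 to 1.36 CPM in ICOS KO, and its 95% interval ran from -2.08 to 0.95 on the log2 scale.

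The ISG15 system tags proteins with the ubiquitin-like ISG15. Usp18, which removes ISG15 and also damps signalling at IFNAR2 (chromosome 6, 121245906 to 121270917), was at 10.5, 14.9 and 23.0 CPM in WT. It was at 4.0, 1.73 and 5.05 CPM in ICOS KO, and the groups did not overlap. The log2 fold change was -2.16 ± 0.38 (SE; adjusted p by edgeR = 0.00934), 4.49-fold between means of 16.1 ± 6.31 and 3.59 ± 1.70 CPM (SD, n = 3 each). Among the members, Usp18 alone passed in all 17 alternatives run. Isg15 was at 3.25, 7.78 and 13.2 CPM in the WT libraries and 3.23, 5.26 and 2.82 CPM in ICOS KO; WT replicate 1 lay within the ICOS KO range, and the difference did not pass (edgeR adjusted p = 0.21). Trim25, a ubiquitin ligase that acts on RIG-I, was at 28.7 to 37.5 CPM in the WT libraries and 21.8 to 29.0 CPM in ICOS KO, overlapping by a narrow margin (log2 fold change -0.40 ± 0.17 SE, edgeR adjusted p = 0.216).

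**Figure D3:**
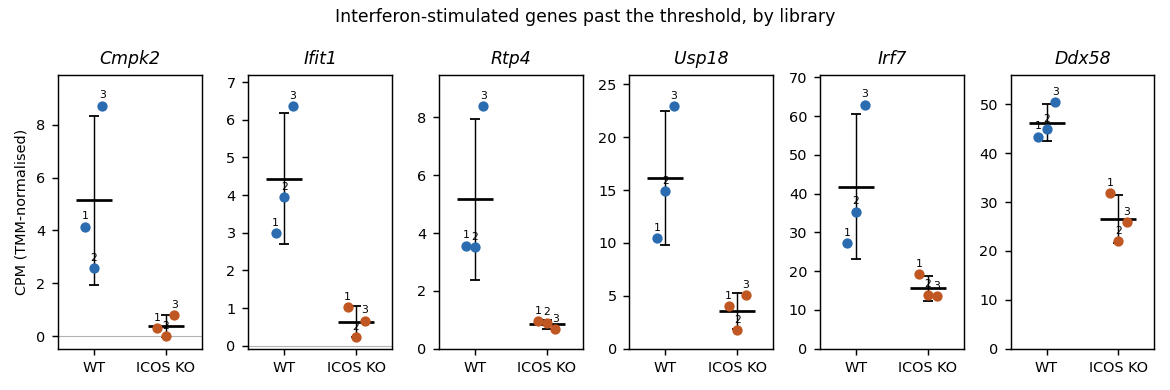
TMM-normalised CPM of the 6 called members in each library; points are libraries with their replicate number, the thick line is the group mean and the thin bars are 1 SD (n = 3). Every ICOS KO point lies below every WT point in each panel, and WT replicate 3 is the highest WT point in all 6.

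Nucleotide and nuclease effectors included the largest fitted difference among the members. Cmpk2, a mitochondrial nucleotide kinase (chromosome 12, 26469204 to 26479837), was at 4.14, 2.58 and 8.72 CPM in the WT libraries and 0.32, 0 and 0.82 CPM in ICOS KO. The counts were 261 over the WT libraries and 16 over the ICOS KO libraries, and the groups were separate. The log2 fold change was -3.73 ± 0.76 (SE; adjusted p by edgeR = 0.0207). The call was lost with limma voom (adjusted p = 0.0576), without WT replicate 1 (edgeR adjusted p = 0.0585) and without WT replicate 3 (0.0862).

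Rsad2 encodes viperin, which converts a nucleotide to a chain terminator, and lies next to Cmpk2 on chromosome 12. It was at 2.99, 1.0 and 4.79 CPM in the WT libraries and 0.78, 0.23 and 0.37 CPM in ICOS KO, again without overlap (log2 fold change -2.63 ± 0.67 SE, edgeR adjusted p = 0.0614). Isg20, an exonuclease, was at 14.2, 17.1 and 29.4 CPM in the WT libraries and 11.2, 12 and 10.1 CPM in ICOS KO (-0.86 ± 0.25 SE, edgeR adjusted p = 0.0953). Both missed the threshold in edgeR with separate groups. DESeq2 called both, and Isg20 was called once length and GC trends were removed. By edgeR, Rsad2 was called without WT replicate 2 or ICOS KO replicate 1, and with a block for replicate number. Samhd1, which degrades deoxynucleotides, was at 102 to 119 CPM in the WT libraries and 104 to 131 CPM in ICOS KO, with a 95% interval of -0.16 to 0.33 on the log2 scale.

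Guanylate-binding GTPases attack pathogen vacuoles and membranes. Gbp2 was at 10.3, 12.2 and 9.44 CPM in the WT libraries and 6.85, 5.26 and 4.53 CPM in ICOS KO, separate but not called (log2 fold change -0.93 ± 0.24 SE, edgeR adjusted p = 0.0622). Gbp3 was at 14.6, 14.5 and 17.5 CPM in the WT libraries and 14.5, 15.0 and 15.4 CPM in ICOS KO, and its 95% interval ran from -0.41 to 0.31. Both promoters hold the response element letters shown above. Among the tested GTPases edgeR and limma voom without sample weights called none, and 1 had an unadjusted p under 0.05. Gbp2 was called by DESeq2, by limma voom with sample weights, and by edgeR on library totals alone or without ICOS KO replicate 1. Mx1, a dynamin-like GTPase, had 13 counts over the WT libraries and 9 over the ICOS KO libraries, too few to compare.

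Regulators of translation and RNA were present at moderate levels. None of the 3 passed in edgeR with all libraries and no block for replicate number, or in limma voom without sample weights. Adar was called by DESeq2 and by limma voom with sample weights. By edgeR it was called without ICOS KO replicate 1 and with a block for replicate number. Of the 3, 2 had an unadjusted p under 0.05. Eif2ak2, encoding the kinase PKR that stops translation on double-stranded RNA, was at 16.3, 14.7 and 20.3 CPM in the WT libraries and 10.5, 9.40 and 13.0 CPM in ICOS KO (log2 fold change -0.64 ± 0.20 SE, edgeR adjusted p = 0.109). Adar, which edits double-stranded RNA, was at 59.4, 56.1 and 57.6 CPM in the WT libraries and 51.5, 33.5 and 32.7 CPM in ICOS KO, where replicate 1 stood apart from the other ICOS KO libraries. The groups did not overlap in either gene. Parp14, an ADP-ribosyltransferase, was at 16.3 to 22.9 CPM in the WT libraries and 14.2 to 16.7 CPM in ICOS KO, overlapping between groups.

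The remaining antiviral members covered the whole range of responses. Rtp4, a chaperone-like protein that also restricts RNA viruses (chromosome 16, 23520291 to 23614222), was at 3.57, 3.52 and 8.39 CPM in the WT libraries and 0.97, 0.90 and 0.67 CPM in ICOS KO. No ICOS KO library came near the lowest WT library. The log2 fold change was -2.59 ± 0.46 (SE; adjusted p by edgeR = 0.0104), from a WT mean of 5.16 ± 2.8 to 0.846 ± 0.158 CPM (SD, n = 3 each). The adjusted p was 0.0628 without ICOS KO replicate 3. Xaf1, a pro-apoptotic factor, was at 16.1, 18.7 and 29.9 CPM in the WT libraries and 12, 14.1 and 10.7 CPM in ICOS KO (-0.81 ± 0.23 SE, edgeR adjusted p = 0.0883), without overlap.

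Bst2 (tetherin), which holds budding viruses on the cell, was at 60.9, 70.4 and 86.5 CPM in the WT libraries and 58.5, 74.3 and 60.6 CPM in ICOS KO (edgeR adjusted p = 0.541). Ifi35 was at 156, 151 and 184 CPM in the WT libraries and 143, 176 and 169 CPM in ICOS KO. For both the groups overlapped, and the 95% interval of Ifi35 was -0.26 to 0.25 on the log2 scale. Ifi44 was below the filter, at 0.16, 0.42 and 2.75 CPM in the WT libraries and 0.13, 0 and 0.52 CPM in ICOS KO, where WT replicate 3 alone was well above the floor.

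Per kilobase of exon, the WT levels spanned 3 orders of magnitude. Ifi35 (94.7 ± 10.2 CPM per kb, SD) and Bst2 (80.4 ± 14.4) led the order and did not differ beyond their spread. Irf1 (18.7 ± 1.09) and Zbp1 (15.6 ± 5.16) came next, also within their spread, and Samhd1, Irf7, Isg20 and Isg15 followed between 12.1 and 10.7 CPM per kb. Ifit1 (1.67 ± 0.654), Ifit2, Cmpk2, Oas3, Rsad2, Ifit3, Ifih1, Oasl2, Ifi44 and Mx1 made up the end of the order, each under 2 CPM per kb. The fitted difference was larger at lower WT level, but at the low end the filter itself favours members that are high in WT. For the 11 members under 10 CPM in WT the median log2 fold change was -1.77 and the median SE 0.53, for the 10 from 10 to 40 CPM the median was -0.84, and for the 10 over 40 CPM it was -0.32. Of these groups 3, 1 and 2 members were called. In the lowest group Cmpk2 (5, 0 and 11 counts in ICOS KO) and Ifit1 (16, 3 and 9) passed the filter through their WT libraries. The median of that group is therefore not independent of the filter.

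Members moved together over the 6 libraries to different degrees, given here as a description. Pearson r between a member's log2 CPM and the mean of the other members was above 0.8 for 18 of the 31, and was 0.99 for Irf7 and for Rtp4. It was -0.79 for Irf1 and -0.15 for Samhd1. Outside the list, the 10 genes with the highest r to the mean of the members (0.978 to 0.997) were Ctdspl2, Prps2, Ms4a4b, Gbp2b, Extl2, Dusp16, Trim30a, Adsl, Jaml and Gsdmd. These values share the same 6 libraries and the difference between their groups.

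Other genes of the pathway were taken by role from lists of 142 symbols, of which 113 had a column and 96 were tested. Of these 8 fell and none rose by edgeR, beside 275 and 176 of the 13691 tested genes. The lists were chosen with earlier results of these data known, so such shares are a description only. An unadjusted p under 0.05 was found for 34 of the 96, beside 2718 of all tested genes, and the median log2 fold change was -0.26. DESeq2 called 18 of them lower and 1 higher (514 and 415 of all tested genes), and limma voom called 6 lower and none higher (254 and 169). The 21 ligand genes listed, Tlr3, Tlr9, Ifnlr1 and Cxcl9 are not analysed here. Of the 12 tested receptor and JAK-STAT genes, 10 had a negative log2 fold change, beside 6904 of all tested genes. Socs1, the inhibitor of JAK kinases, was at 656 to 776 CPM in the WT libraries and 740 to 876 CPM in ICOS KO. Jak1 was at 367 to 415 and 287 to 366 CPM, and neither was called. Ifngr2 was lower in every ICOS KO library (-0.60 ± 0.15 SE, edgeR adjusted p = 0.0584). DESeq2 and limma voom with sample weights called Ifngr2. EdgeR called it on library totals alone, with a minimum of 5 CPM in 3 libraries, with a block for replicate number and without WT replicate 3.

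Among 14 tested genes of induction 1 fell, beside 2.01% of all tested genes. It was Irf5, a factor downstream of Toll-like receptors. Irf5 was at 33.2, 33.0 and 29.2 CPM in the WT libraries and 20.7, 14.1 and 14.9 CPM in ICOS KO (log2 fold change -0.94 ± 0.17 SE, edgeR adjusted p = 0.0111), with no overlap. It missed the threshold without WT replicate 1 (0.0589), WT replicate 2 (0.066) or ICOS KO replicate 3 (0.0711). Irf5 overlaps Tnpo3, with the same doubt about strand as for Irf7. Sting1, Myd88 and Irf3, the most abundant of this list, differed by -0.16, -0.18 and 0.087 on the log2 scale and were not called.

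Of 53 other genes induced by type I interferon, 44 had a negative and 9 a positive log2 fold change (median -0.30). Over all tested genes 6904 were negative and 6787 positive. Of the 53, 6 fell, beside 2.01% of all tested genes. Tor3a, an ATPase of the endoplasmic reticulum, was at 27.1, 21.9 and 27.7 CPM in the WT libraries and 12.9, 9.47 and 10.3 CPM in ICOS KO (log2 fold change -1.23 ± 0.18 SE, edgeR adjusted p = 0.00299). Ms4a4b, a membrane protein of lymphocytes, was at 3.46, 3.37 and 6.62 CPM in the WT libraries and 0.90, 0.68 and 0.45 CPM in ICOS KO (-2.70 ± 0.46 SE, edgeR adjusted p = 0.0084). In both the groups were separate, and both were called in every alternative that tested them. Slfn2 (log2 fold change -0.48), Znfx1 (-0.93), Ifi27 (-0.71) and Trim30a (-0.96) also fell, with edgeR adjusted p from 0.0178 to 0.0463, and each lost its call without at least 4 single libraries, with adjusted p up to 0.128, 0.162, 0.173 and 0.169. Ifi27 and Trim30a also lost the call with upper-quartile factors and with limma voom. Trim30a lost it too with voom sample weights and with no filter on low counts. Slfn2 overlaps Gm20234 and Znfx1 overlaps Zfas1, with the same doubt about strand as for Irf7. The chemokine gene Cxcl10 was near the floor, at 0.05, 0.11 and 1.05 CPM in WT and 0 in all ICOS KO libraries.

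Genes that lean towards interferon-gamma showed both directions. Of 17 tested GTPases and targets, edgeR and limma voom without sample weights called none. By edgeR 8 had an unadjusted p under 0.05, beside 2718 of the 13691 tested genes. DESeq2 called 4 (Cd274, Gbp6, Gbp9 and Igtp), and limma voom with sample weights called Cd274, Gbp6 and Igtp. Gbp6, Gbp9 or Igtp were also called by edgeR under single changes of filter, scaling or length and GC, and Gbp4, Gbp6 and Gbp10 without ICOS KO replicate 1. With a block for replicate number edgeR called Cd274, Gbp6 and Igtp. The log2 fold change was negative for 10 and positive for 7, with a median of -0.13. Igtp was at 170, 162 and 185 CPM in the WT libraries and 228, 207 and 229 CPM in ICOS KO (0.36 ± 0.10 SE, edgeR adjusted p = 0.0675), while Gbp4 was at 113 to 124 CPM in the WT libraries and 82.8 to 106 CPM in ICOS KO. The groups were separate in both genes, in opposite directions.

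**Figure D4:**
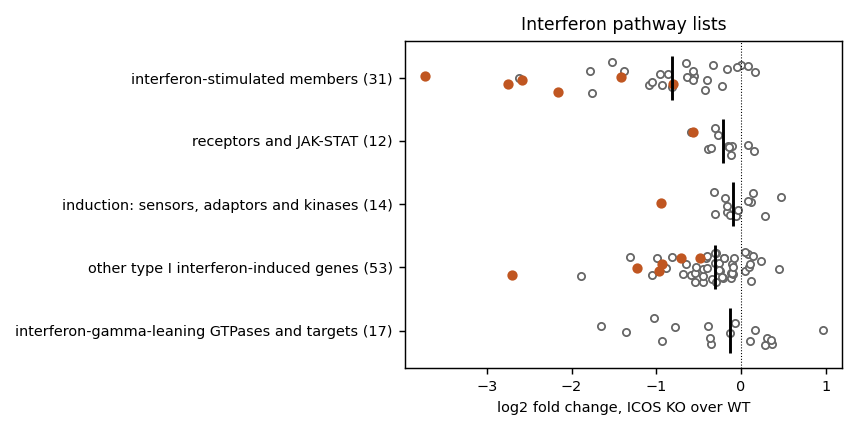
Fitted log2 fold change (ICOS KO over WT) of each tested gene in the member list and the 4 pathway lists, with the number tested in brackets. Filled points have an edgeR adjusted p under 0.05 and bars mark the median, which was -0.81 for the members and between -0.30 and -0.090 for the other lists.

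The members lie on 14 chromosomes, and none is on chromosome 1, which carries Icos. Tor3a, a called gene of the other lists, lies on that chromosome, 95.7 Mb from Icos. On any chromosome, strain DNA and the effect of the allele cannot be told apart.

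Markers of other cells and signs of RNA quality also differed between the libraries. The 10 mast cell and basophil markers summed to 347 to 403 CPM in the WT libraries and 57.7 to 70.2 CPM in ICOS KO. Of the 10, 7 fell, beside 2.01% of all tested genes. Tpsab1, a mast cell tryptase, went from 249 ± 27.0 to 29.7 ± 7.55 CPM (SD, n = 3 each). The 8 macrophage and monocyte markers summed to 116, 111 and 162 CPM in the WT libraries and 88.7, 65.2 and 106 CPM in ICOS KO, highest in WT replicate 3 as the members were, and Csf1r, the receptor gene of that lineage, fell. Eosinophil markers were at 3.02 to 45.4 CPM in the WT libraries and 1.65 to 4.60 CPM in ICOS KO, and lowest among the WT libraries in replicate 3. Conventional dendritic cell markers summed to 45.9 to 51.0 and 44.4 to 48.1 CPM. Plasmacytoid dendritic cells, known as strong producers of interferon, had marker sums of 12.9 to 14.9 CPM in the WT libraries and 10.3 to 14.6 CPM in ICOS KO, with Siglech not analysed here. Within that sum Ccr9 was higher in every ICOS KO library (means 1.41 ± 0.46 in WT and 4.06 ± 0.98 CPM in ICOS KO). Tcf4 was lower in every ICOS KO library (8.16 ± 0.76 and 3.96 ± 1.52 CPM, SD, n = 3 each). Neither was called (edgeR adjusted p = 0.068 and 0.101). The T cell list summed to 245 to 300 CPM in WT and 367 to 469 CPM in ICOS KO, most of it Trbc1 and Trbc2, which rose, while Cd3e fell (edgeR adjusted p = 0.0281), with means of 8.87 ± 1.41 in WT and 2.30 ± 1.34 CPM in ICOS KO (SD, n = 3 each). Cd4, Cd8a and Trac each had means under 1 CPM in both groups. The B cell list, mostly Ighm, summed to 909 to 1364 and 1514 to 1528 CPM. NK cell and neutrophil lists stayed under 8 CPM in every library. Within the NK cell list Ncr1 fell, with 27, 23 and 25 counts in the WT libraries and 0, 0 and 1 in ICOS KO (edgeR adjusted p = 0.00713). Prf1 went the other way, from 2.91 ± 1.05 to 5.44 ± 1.87 CPM (SD, n = 3 each), and was not called. Klrb1c and Eomes, lower in mean in ICOS KO, did not pass the filter. Of the fibroblast list only Col1a2 had a column, at 0 in every library but ICOS KO replicate 3. The mitochondrial share of counts was 0.263%, 0.294% and 0.422% in WT and 0.329%, 0.616% and 0.492% in ICOS KO, and Malat1, a nuclear RNA, was at 610 to 996 and 811 to 1687 CPM, both overlapping between groups. The part of these differences in the members' levels was not tested.

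**Figure D5:**
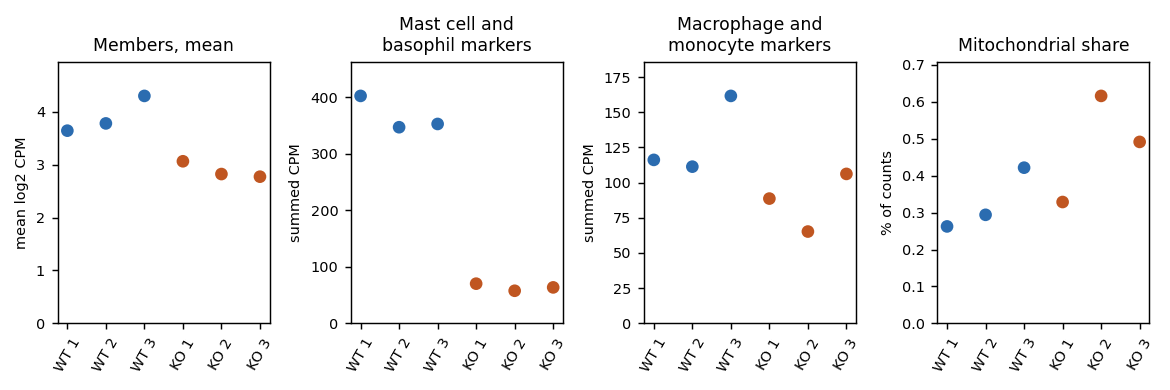
Values in each of the 6 libraries (blue, WT; orange, ICOS KO): the mean log2 CPM of the tested members, the summed CPM of mast cell and basophil markers, the summed CPM of macrophage and monocyte markers, and the mitochondrial share of counts. The member mean and the mast cell sum separate the genotypes, while the mitochondrial share overlaps and the macrophage sums come close, at 106 CPM in the highest ICOS KO library and 111 CPM in the lowest WT library.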

How the data were processed

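The data are 6 RNA libraries of sorted, cultured mouse lung ILC2s, 3 WT and 3 ICOS KO; the series' design text mentions duplicates, and all 3 libraries of each genotype were used. The table the authors deposited gives estimated counts by gene and library, and 39.4% of its values were not whole. Partek 10.0, STAR 2.7.8, DESeq2 and the build mm10 are named per the submitters' processing notes; the annotation, the counting method and its strandedness were not given in the sources used here. Counts were rounded, filtered with filterByExpr, scaled by TMM factors and tested without covariates in edgeR 4.0.16 (quasi-likelihood F test; R 4.3.3) with Benjamini-Hochberg adjustment at 0.05; the common biological variation was 18.5% (coefficient of variation). Each SE is the one the F statistic implies, and the fit was tested on simulated data. No library repeated another (chi-square per degree of freedom at least 8.84). Positions and exon lengths are from GENCODE M21 by symbol. Alternatives were DESeq2 1.42.0, voom of limma 3.58.1 without and with sample weights, scaling by RLE, upper-quartile or library totals, other filters, a replicate block, mitochondrial and haemoglobin genes left out, each library left out, and, added after seeing the data, removal of each library's length and GC trend. All members were named, and in the pathway lists the called genes and otherwise some of the 3 most abundant. Ifngr2 and Cxcl10 were named after their values were seen. The members and lists were chosen with earlier results of these data known. The values of 1 pathway gene are not reported here.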

Additional observations from a re-analysis of the deposited data

How the results depend on the processing

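The number of genes called in all was 451 and moved to 929 with DESeq2, 906 with voom sample weights and 784 with the replicate block; leaving out single libraries gave 193 to 1090. Members called lower, 6, became 16 with DESeq2 and 3 with a minimum of 5 CPM in 3 libraries (which left 21 members to test), and 2 to 10 without single libraries. Other pathway genes called, 8, became 5 with upper-quartile factors, 19 with DESeq2, 16 with voom sample weights and 14 with the replicate block, and 2 to 15 without single libraries. The cause of these moves was not tested, apart from the smaller number of members under the stricter filter. Without single libraries the log2 fold changes that crossed 0 ranged from -0.36 to 0.077 for Zbp1, -0.0067 to 0.17 for Samhd1, -0.098 to 0.040 for Gbp3 and -0.061 to 0.084 for Ifi35. Response element letters on the gene's strand alone were in 22.2% of members. Changes of sign were seen in members with differences near 0. The log2 fold change of Ifi35 was 0.0011 with RLE factors and with DESeq2, 0.019 with upper-quartile factors, 0.041 with voom sample weights, 0.0021 with the 5 CPM minimum, 0.084 without WT replicate 3 and 0.083 without ICOS KO replicate 1. That of Gbp3 was 0.0012 with voom sample weights, 0.029 once length and GC trends were removed and 0.040 without WT replicate 3, that of Zbp1 was 0.077 without WT replicate 3, and that of Samhd1 was -0.0067 without ICOS KO replicate 3. The share of calls that were higher was 39%, 28.2% with library totals alone and 58.3% with the length and GC trend removed (known for 97.8% of tested genes); members called lower were then 8 and 8. Whether the replicate numbers pair the libraries was not settled. Deviations of same-numbered libraries correlated weakly, at 0.087, 0.078 and 0.064. Yet each of the 6 correlated best with its own number, and the lowest correlation between any WT and ICOS KO library was -0.082. With the replicate block 784 genes were called in place of 451. Then 9 members were lower, with Adar, Rsad2 and Stat2 added, and Cd274, Gbp6 and Igtp were called among the interferon-gamma list. Depth limits the lowest members: the median SE of a log2 fold change was 0.53 under 10 CPM and 0.15 over 40 CPM.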
